A study of Nicotiana benthamiana with 8 samples.

Results

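RAX-type MYB factors are the family to which Arabidopsis MYB36 and MYB84 belong. In a deposited table of 3305 Nicotiana benthamiana contigs, 11 contigs carried the Arabidopsis symbol MYB36 or MYB84, or were named RAX in the annotation against green plants. The rule also admitted the symbols MYB37, MYB38, MYB68 and MYB87, which were carried by 0 contigs of the table. Of the 11 contigs, 2 had the symbol MYB36, 4 had MYB84, and 5 had no symbol, namely 4 annotated as probable RAX2 and 1 as probable RAX3. They were between 822 and 1466 bases long, 9 came from the primary and 2 from the alternate contigs of the N. benthamiana transcriptome, and they are given here under their contig numbers, with no genome position.

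The study expressed MdMYB68, a MYB factor of apple, in leaves of 4-week-old N. benthamiana, a relative of tobacco whose leaves transiently express genes carried in by Agrobacterium. One group of leaves received MdMYB68 driven by the 35S promoter, a viral promoter active in most plant cells, as a fusion with GFP. The empty vector took its place in the control leaves, and p19, which keeps the plant from silencing introduced genes, was co-infiltrated in both groups. RNA was collected 4 days after infiltration from 4 biological replicates per group, each a pool of 3 plants with 4 leaves per plant. In such bulk samples a change in the number of cells of a type and a change in RNA per cell cannot be told apart.

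MYB factors bind DNA through repeats of the MYB domain and switch sets of target genes on or off. In Arabidopsis, MYB36 is expressed in the root endodermis, where it switches on the genes that build the Casparian strip, the ring of lignin that seals the wall between neighbouring cells. RAX1, RAX2 and RAX3, the products of MYB37, MYB38 and MYB84, act in the formation of axillary meristems, from which side shoots grow. All of these factors belong to a single subgroup of related sequences with MYB68 and MYB87. The annotations of the contigs follow this relatedness loosely. Both contigs with the symbol MYB36 were annotated as probable RAX3, a name that belongs to MYB84 in Arabidopsis.

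The 4 MdMYB68 libraries had 31244291 to 34080202 mapped reads and the 4 empty vector libraries 29371282 to 32279582. Only contigs that met cut-offs for a large change in these same libraries are in the table. Every member therefore had to differ, and the tests below are no independent evidence of a difference. Of the listed contigs 2757 passed the test as higher and 411 as lower in MdMYB68 leaves. A list of 64 leaf mesophyll contigs, photosystem and small Rubisco subunit annotations among them, summed to 6271 to 9707 RPM (reads scaled to the mapped reads of the library) in MdMYB68 leaves and 27264 to 39614 in empty vector leaves. Of these 64 contigs 63 passed the test as lower, and the remaining one, Nbv5tr6279798, named after its value was seen, had a log2 fold change of -2.29 ± 0.54 (SE, adjusted p = 0.00199 in edgeR). Of the 64, 1 had a library without a read, and 0 were at 0 in every library. Their part in the results on the RAX-type contigs was not tested.

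All 11 RAX-type contigs were higher in MdMYB68 leaves, and few of their reads were found in empty vector leaves. Together they took 2000, 1858, 2053 and 1771 RPM in MdMYB68 replicates 1 to 4, against 1.26, 1.84, 1.82 and 1.36 in the empty vector replicates. The groups did not overlap, and the pooled ratio was 1218-fold with a 95% counting interval of 1058 to 1408. In reads, this is 247887 in the MdMYB68 libraries and 195 in the empty vector libraries. Of these, 145757 and 134 were uniquely placed, that is, fitted no other contig of the same set. The others also fitted contigs that are not named. From uniquely placed reads the ratio was 1042-fold, with a counting interval of 880 to 1244. Primary and alternate contigs were mapped separately, and whether a read counts in both sets is not given. No contig of the family had more than 30 reads in any empty vector library.

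Each contig was tested on total gene reads, the reads that fall on a contig whether or not they also fit elsewhere. The test was the quasi-likelihood test of edgeR, with all mapped reads as library size and Benjamini-Hochberg adjustment over the 3305 contigs, and a contig passed at an adjusted p under 0.001. All 11 contigs passed as higher, with adjusted p between 2.16e-10 and 1.10e-07. The background is high, since 83.4% of all listed contigs passed as higher and 95.9% in either direction. Likewise 11 of 11 contigs did not overlap between the groups, against 85.9% of the listed contigs. The log2 fold changes of the family lay between 6.87 and 14.27 with a median of 10.98, against a median of 3.34 over all listed contigs. Standard errors beside a log2 fold change are its size divided by the square root of the F statistic. For contigs with few empty vector reads they can be smaller than the counting error, and the fitted value then depends on the prior count.

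**Figure D1:**
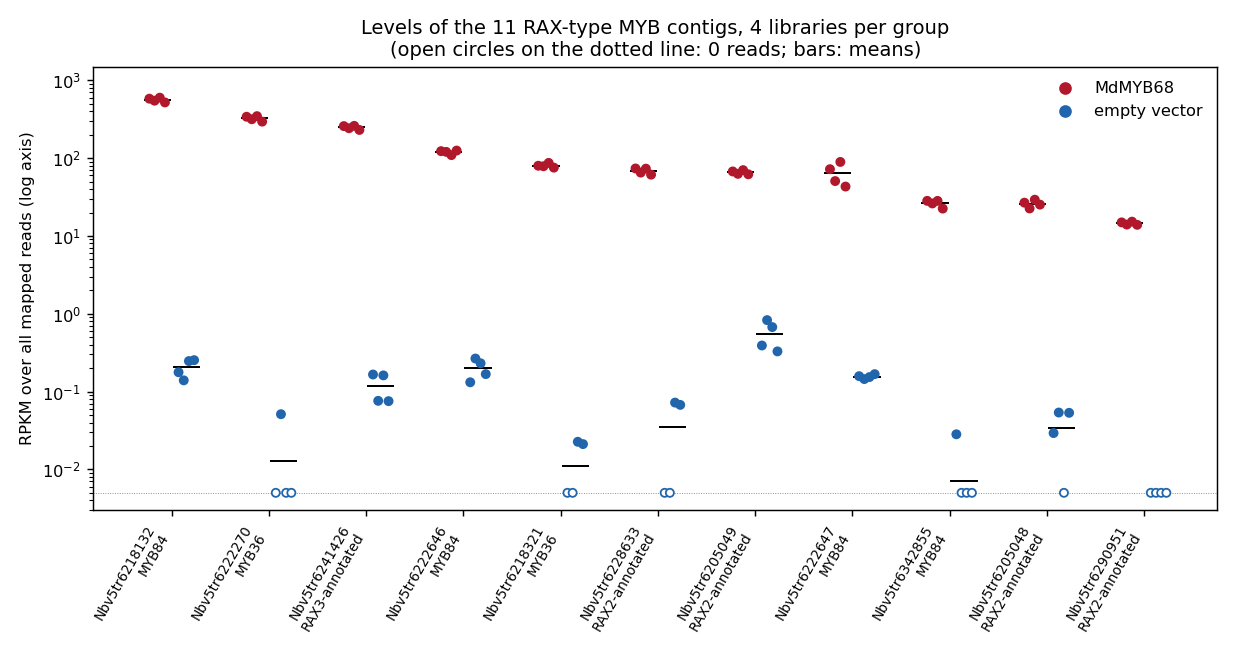
Each point is the level of a contig in a library, as RPKM over all mapped reads on a log axis, with MdMYB68 in red left of empty vector in blue, black bars for group means and open circles for libraries with 0 reads. The MdMYB68 libraries sit between 13.9 and 598 RPKM, and no empty vector library is above 0.828 RPKM.

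Levels are given as RPKM over all mapped reads of a library, that is, RPM divided by the length of the contig in kilobases. The deposited RPKM is not comparable across all 11 contigs, because the authors divided reads on primary contigs by the reads mapped to primary contigs and reads on alternate contigs by those mapped to alternate contigs. For the same reads and length, an alternate contig thereby has a deposited RPKM that is 4.76 to 5.04 times that of a primary contig, depending on the library.

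Among members with empty vector reads, the MYB36 contigs had the 2 highest ratios, with counting intervals that reach into those of other members. Nbv5tr6290951, without such reads, has only a lower bound and cannot be ranked. Nbv5tr6218321 is the MYB36 contig on which most reads were uniquely placed. Its names do not all match, since its best hit is called a myb-related protein, with neither MYB36 nor RAX in the name. It is called a MYB36 contig here by its symbol only. It had 3709, 3929, 3977 and 3566 total gene reads in MdMYB68 replicates 1 to 4, against 0, 0, 1 and 1 in the empty vector replicates. The groups lay far apart, and in empty vector leaves the contig was at the limit of what this depth can count. Its level was 80.2 ± 4.78 RPKM in MdMYB68 leaves and 0.0109 ± 0.0126 RPKM in empty vector leaves (SD, n = 4 each). With 2 reads over the empty vector group the ratio was 7270-fold, with a 95% counting interval of 2012 to 60037, and the fitted log2 fold change was 12.51 ± 0.27 (SE, adjusted p = 2.68e-10 in edgeR). Of its MdMYB68 reads 91.8% were uniquely placed, that is, they fitted no other contig of its own set. Primary and alternate contigs were mapped as separate references. Whether a uniquely placed read also fitted a contig of the other set is not given.

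The other MYB36 contig, Nbv5tr6222270, was more abundant in total reads and had no read of its own. It had 13169, 13147, 13208 and 11588 total gene reads in MdMYB68 leaves, against 0, 2, 0 and 0 in empty vector leaves. In RPKM the MdMYB68 replicates were at 340, 316, 346 and 295, with replicate 4 lowest. On average the contig stood at 324 ± 23.7 RPKM in MdMYB68 leaves and 0.0128 ± 0.0256 RPKM in empty vector leaves (SD, n = 4 each), and the ratio of 24477-fold has a counting interval of 6776 to 202123. Of its 51112 MdMYB68 reads 0 were uniquely placed. All of its reads therefore also fitted at least 1 other contig, and the table does not say which.

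Among the MYB84 contigs, Nbv5tr6218132 was the most abundant contig of the family. It had 24759, 25070, 25143 and 22518 total gene reads in MdMYB68 leaves, against 7, 6, 10 and 11 in empty vector leaves. Uniquely placed reads were nearly as many, with 24326, 24621, 24654 and 22111 in MdMYB68 leaves and the same 7, 6, 10 and 11 in empty vector leaves. Both kinds of reads thus give the same picture, a contig with at least 22111 reads of either kind per library in MdMYB68 leaves and no more than 11 in empty vector leaves. Its level was 561 ± 35.1 RPKM in MdMYB68 leaves and 0.204 ± 0.0552 RPKM in empty vector leaves (SD, n = 4 each), and its log2 fold change was 11.40 ± 0.21 (SE, adjusted p = 2.16e-10 in edgeR). This contig alone took 39.3% of the family's reads in MdMYB68 leaves.

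Nbv5tr6342855, the MYB84 contig of the alternate set, had 1079, 1074, 1062 and 872 total gene reads in MdMYB68 leaves, against 1, 0, 0 and 0 in empty vector leaves. All but 1 of its MdMYB68 reads were uniquely placed, with 1061 of 1062 in replicate 3. With 1 empty vector read the ratio was 3915-fold, with a counting interval of 702 to 154652. The interval is wide because the empty vector level rests on that read.

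The remaining MYB84 contigs, Nbv5tr6222646 and Nbv5tr6222647, carry adjacent numbers and shared nearly all their reads with other contigs. Nbv5tr6222646 had 5038, 5301, 4416 and 5209 total gene reads in MdMYB68 leaves, against 5, 11, 9 and 7 in empty vector leaves, but its uniquely placed reads were 9, 6, 0 and 14 against 1, 7, 5 and 5. Nbv5tr6222647 had 2960, 2238, 3614 and 1799 total gene reads in MdMYB68 leaves, against 6, 6, 6 and 7 in empty vector leaves, and its uniquely placed reads were 10, 3, 8 and 5 against 2, 6, 4 and 7. By total reads both contigs stood clear of the empty vector libraries, and by uniquely placed reads the ranges of the groups overlapped for both. The ratio of total reads was 598-fold for Nbv5tr6222646 and 407-fold for Nbv5tr6222647. From uniquely placed reads it was 1.54-fold with a counting interval of 0.828 to 2.95 and 1.31-fold with an interval of 0.698 to 2.51.

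The contig annotated as RAX3 without a symbol, Nbv5tr6241426, had 6722, 6785, 6674 and 6098 total gene reads in MdMYB68 leaves, against 4, 2, 4 and 2 in empty vector leaves. Its uniquely placed reads were 5695, 5711, 5679 and 5199 in MdMYB68 leaves and 3, 1, 4 and 2 in empty vector leaves. It stood below only Nbv5tr6218132 and Nbv5tr6222270 in level, at 248 ± 14.01 RPKM in MdMYB68 leaves and 0.120 ± 0.0507 RPKM in empty vector leaves (SD, n = 4 each). Its log2 fold change was 10.98 ± 0.20 (SE, adjusted p = 2.16e-10 in edgeR).

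Of the 4 RAX2-annotated contigs, 2 rested on uniquely placed reads and 2 did not. Nbv5tr6228633 had 2145, 2040, 2103 and 1816 total gene reads in MdMYB68 leaves, against 0, 0, 2 and 2 in empty vector leaves, and 98.1% of its MdMYB68 reads were uniquely placed. Nbv5tr6290951 had 402, 405, 405 and 380 in MdMYB68 leaves, of which 99.6% were uniquely placed, and was the only member with no read in any empty vector library. Against a floor of 3 reads over the empty vector group it was at least 508-fold higher in MdMYB68 leaves, a bound that covers counting error only. Nbv5tr6228633 was 1940-fold higher, with a counting interval of 758 to 7124.

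The RAX2-annotated contigs Nbv5tr6205048 and Nbv5tr6205049 are again adjacent in number. Nbv5tr6205048 had 986, 893, 1061 and 946 total gene reads in MdMYB68 leaves, against 1, 2, 0 and 2 in empty vector leaves, but uniquely placed reads of only 2, 0, 2 and 1 against 1, 2, 0 and 1. Nbv5tr6205049 had 2419, 2423, 2479 and 2260 total gene reads in MdMYB68 leaves, against 13, 30, 23 and 12 in empty vector leaves, the highest empty vector counts of the family. Its uniquely placed reads were 35, 46, 42 and 24 in MdMYB68 leaves and 8, 11, 14 and 9 in empty vector leaves. The groups did not overlap in either kind of read for Nbv5tr6205049, but the ratio was 118-fold from total reads and 3.35-fold from uniquely placed reads, with a counting interval of 2.36 to 4.84 for the smaller value.

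Ordered by mean level over all mapped reads in MdMYB68 leaves, the family ran from Nbv5tr6218132 (MYB84) at 561 RPKM, through Nbv5tr6222270 (MYB36) at 324, Nbv5tr6241426 (RAX3) at 248, Nbv5tr6222646 (MYB84) at 119 and Nbv5tr6218321 (MYB36) at 80.2, to lower contigs. Nbv5tr6228633 (RAX2) followed at 68.3 RPKM, Nbv5tr6205049 (RAX2) at 65.6 and Nbv5tr6222647 (MYB84) at 63.8. These 3 neighbours overlapped in their library ranges and are not told apart. Nbv5tr6342855 (MYB84) at 26.3 RPKM and Nbv5tr6205048 (RAX2) at 25.95 overlapped as well, and Nbv5tr6290951 (RAX2) was lowest at 14.5 RPKM. The other neighbours in this order had library ranges that lay apart, and 37 listed contigs had a higher mean level in MdMYB68 leaves than Nbv5tr6218132. The order rests on total gene reads. Nbv5tr6222270 had 0 uniquely placed reads, and Nbv5tr6222646, Nbv5tr6205049, Nbv5tr6222647 and Nbv5tr6205048 had under 2%. The places of these contigs therefore depend on how shared reads were divided.

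The order depends on the denominator for the 2 alternate contigs. In deposited RPKM, Nbv5tr6342855 stood at 152 ± 15.6 in MdMYB68 leaves and Nbv5tr6290951 at 84.3 ± 4.04, whereas the MYB36 contig Nbv5tr6218321 stood at 96.9 ± 5.82 (SD, n = 4 each). Over all mapped reads, Nbv5tr6342855 was at 26.3 ± 2.72 RPKM and so below Nbv5tr6218321 instead of above it. By mean, the deposited values therefore put the alternate MYB84 contig in the fourth place, and the common denominator puts it in the ninth. Neither place is told apart from the next. Its library range overlaps that of Nbv5tr6222646 in deposited RPKM, at 144 ± 8.36 (SD, n = 4), and that of Nbv5tr6205048 over all mapped reads.

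Within its own reference set, a member had either mostly uniquely placed reads or almost none. In 6 contigs over 80% of all reads were uniquely placed, with 84.8% in the lowest of them, and in 5 contigs under 2% were, with 1.96% in the highest. The first set held 1 MYB36, 2 MYB84, 1 RAX3-annotated and 2 RAX2-annotated contigs, and the second held 1 MYB36, 2 MYB84 and 2 RAX2-annotated contigs. The first took 1183 ± 74.0 RPM in MdMYB68 leaves and 0.430 ± 0.136 in empty vector leaves. The second took 737 ± 55.7 in MdMYB68 leaves and 1.14 ± 0.355 in empty vector leaves (SD, n = 4 each).

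**Figure D2:**
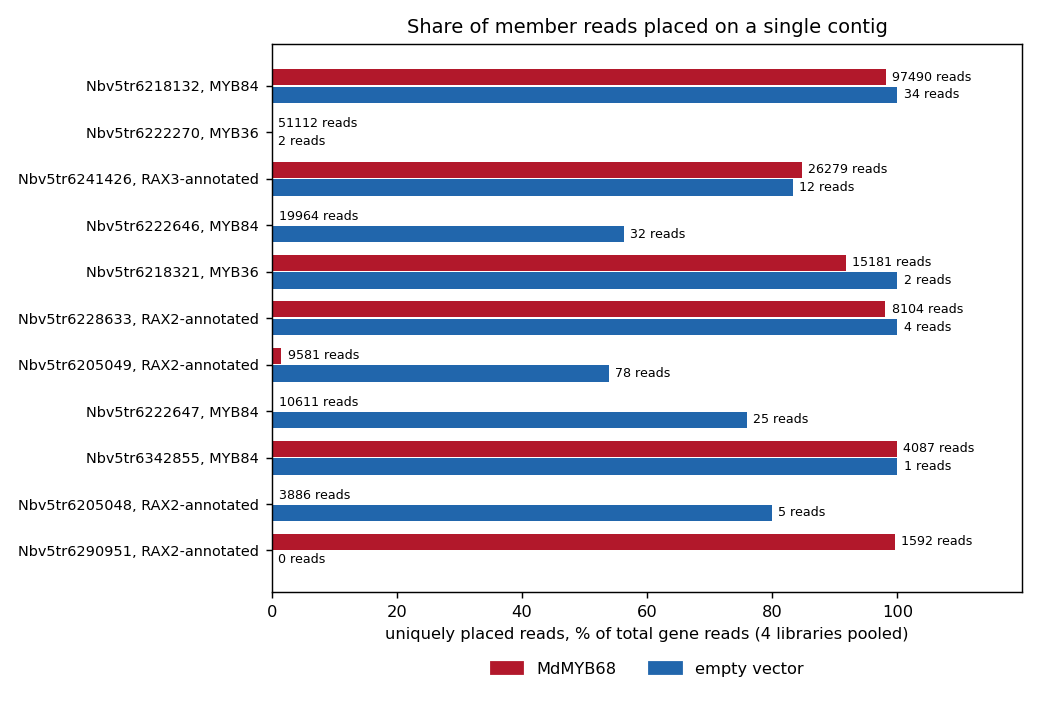
Bars give uniquely placed reads as a percentage of total gene reads, pooled over the 4 libraries of a group, with MdMYB68 in red above empty vector in blue and the number of total reads beside each bar. The contigs split into those near the right and those near 0% in MdMYB68, 4 of the latter with shares of at least 53.8% in empty vector, from 5 to 78 reads. Nbv5tr6290951 has 0 empty vector reads, so its missing blue bar stands for no share rather than a share of 0%.

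With uniquely placed reads in place of total gene reads, 7 of the 10 contigs that had such reads passed the test as higher, against 80.3% of the 2907 listed contigs with such reads. The number whose groups did not overlap was also 7, against 82.4%. The 6 contigs with over 80% unique reads passed with nearly the same log2 fold changes as before, for example 12.39 in place of 12.51 for Nbv5tr6218321 and 11.38 in place of 11.40 for Nbv5tr6218132. Nbv5tr6205049 passed with a smaller one, 1.73 in place of 6.87 (adjusted p = 6.74e-05 in edgeR). The MYB84 contigs Nbv5tr6222646 and Nbv5tr6222647 and the RAX2-annotated Nbv5tr6205048 did not pass, with log2 fold changes of 0.62, 0.39 and 0.24 (adjusted p = 0.41, 0.49 and 0.83 in edgeR). Nbv5tr6222270 had no uniquely placed read and could not be tested.

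**Figure D3:**
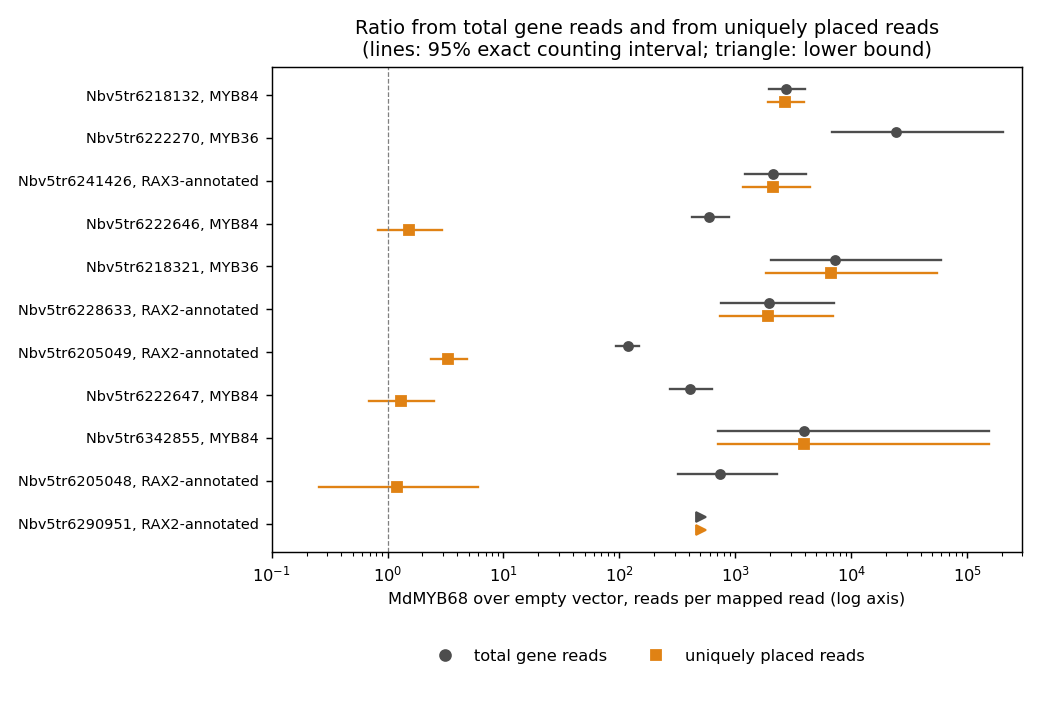
The ratio of MdMYB68 to empty vector in reads per mapped read is shown on a log axis, with grey circles for total gene reads, orange squares for uniquely placed reads, lines for 95% exact counting intervals and triangles for a lower bound. Both ratios lie close together in 6 contigs, whereas in 4 contigs the ratio from uniquely placed reads is 1.197 to 3.35 and that from total reads 118 to 744.

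The cut-offs of the study, a 4-fold change in mean RPKM and an RPKM difference of 5, can be applied to either kind of read. With RPKM over all mapped reads 11 of 11 contigs met both, against 68.6% of the listed contigs. The contigs entered the table by these cut-offs in deposited RPKM, so this count is no result on the family. The change of denominator lowers alternate contigs most, and these are 1474 of the 3305 listed contigs but 2 of the 11 members. With uniquely placed reads 6 did, against 52.6%, and these were the 6 contigs with over 80% unique reads.

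The share of uniquely placed reads was compared between the groups in the 4 contigs with at least 5 reads in every library, and was far lower in MdMYB68 leaves in 3 of them. For Nbv5tr6222646 it was 0.140% ± 0.113 in MdMYB68 leaves and 52.7% ± 22.7 in empty vector leaves, for Nbv5tr6222647 0.243% ± 0.0867 and 75.0% ± 31.9, and for Nbv5tr6205049 1.53% ± 0.3599 and 58.5% ± 15.96 (SD, n = 4 each). In these 3 contigs nearly all MdMYB68 reads thus also fitted other primary contigs, and most of the few empty vector reads did not. For Nbv5tr6218132 the shares were 98.2% ± 0.0849 and 100%, and with 34 empty vector reads in all a difference of 1.82 percentage points is not detectable at this depth. The two-sided exact permutation test gave p = 0.0286 for each of the 4 contigs, the smallest value that 4 libraries against 4 allow, with no adjustment. For Nbv5tr6218132 this p follows from the low empty vector counts and shows no difference in share. Of the 2043 listed contigs with as many reads, 8.08% had lower shares in MdMYB68 leaves without overlap between the groups, and the median difference over them was 0.

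Reads of the introduced apple MdMYB68 are one kind of read that the mapping could have placed on these contigs. The table holds no row for the apple sequence and no read sequences, so reads of the transgene and reads of N. benthamiana genes cannot be told apart here, whether uniquely placed or shared. Which part of each contig the reads covered is likewise not given.

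The pairs with adjacent numbers divided a steady total unevenly. Nbv5tr6222646 and Nbv5tr6222647 together had 7998, 7539, 8030 and 7008 reads in the MdMYB68 replicates, and Nbv5tr6222646 took 63.0%, 70.3%, 55.0% and 74.3% of them. In RPKM, Nbv5tr6222647 varied more over the MdMYB68 libraries than any other member, with a coefficient of variation of 32.9% against 4.71% to 10.8% in the other 10. The sum of the pair varied by 8.66%. For Nbv5tr6205048 and Nbv5tr6205049 the sums were 3405, 3316, 3540 and 3206 reads, with 26.9% to 30.0% of them on Nbv5tr6205048 in MdMYB68 leaves. Whether the contigs of a pair share their reads with each other is not given, so the level of each is uncertain by the way shared reads were divided.

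**Figure D4:**
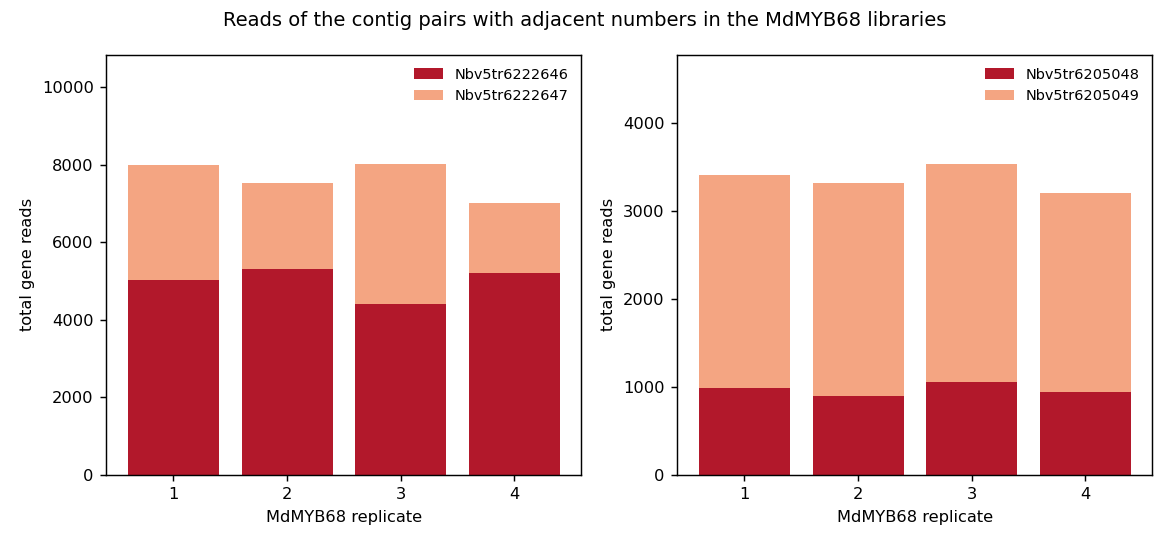
Stacked bars show total gene reads in the 4 MdMYB68 replicates for the MYB84 pair on the left and the RAX2-annotated pair on the right, the lower-numbered contig at the bottom. The height of the left bars stays between 7008 and 8030 reads, whereas the upper part of them ranges from 1799 to 3614.

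Over the MdMYB68 libraries, the coefficient of variation was at most 10.8% in all members but Nbv5tr6222647. Relative to each contig's mean, the median level was 103% in replicate 1, 97.4% in replicate 2, 106.9% in replicate 3 and 93.0% in replicate 4. Replicate 4 was the lowest library for 9 of the 11 contigs, against 45.7% of the 2207 listed contigs that passed as higher with a mean of at least 100 reads. The exceptions were Nbv5tr6222646, lowest in replicate 3, and Nbv5tr6205048, lowest in replicate 2, both of them contigs with shared reads. The MYB factors linked to suberin, the waxy wall polymer of bark and endodermis, ran the other way. Of 7 such contigs that passed as higher, 0 were lowest and 5 were highest in replicate 4, with a median of 117% of the group mean, whereas 19.8% of the 2207 contigs were highest there. The pattern was not particular to the RAX-type contigs, since 5 of 6 GRAS contigs were also lowest in replicate 4, with a median of 91.3%. Of 23 remaining MYB contigs 11 were lowest there, a share near the 45.7% of the 2207 contigs. Replicate 3 was highest for 16 of these 23, against 1031 of the 2207. Of 9 Casparian strip membrane protein contigs 3 were lowest in replicate 4, and of 18 dirigent protein contigs 4. No test was made of these differences between lists.

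**Figure D5:**
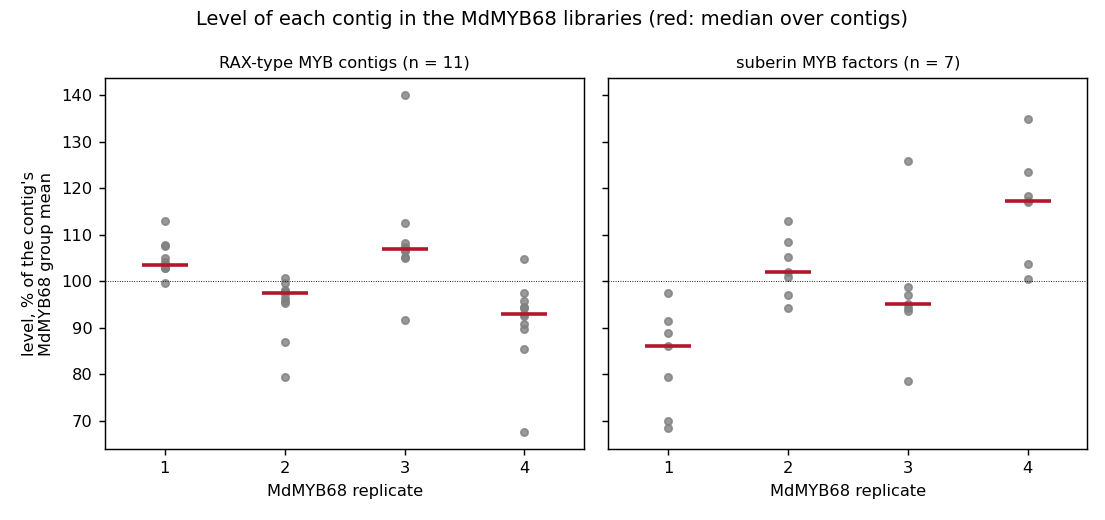
Grey points give the level of each contig in the 4 MdMYB68 replicates as a percentage of that contig's group mean, for the 11 RAX-type contigs on the left and 7 suberin MYB contigs on the right, with medians in red. In replicate 4 the median is 93.0% on the left and 117% on the right.

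Genes that build the Casparian strip, some of them targets of MYB36 in Arabidopsis, were sought in 3 lists. Their counts stand beside the 83.4% of all listed contigs that passed as higher, and their median ratios on the log2 scale beside 3.35 over all listed contigs. All 10 contigs annotated as Casparian strip membrane proteins, which mark out the membrane domain of the strip, passed as higher, with a median of 9.99. The most read of them, Nbv5tr6228198, had 16350, 15673, 17018 and 15548 reads in MdMYB68 leaves, against 3, 2, 0 and 0 in empty vector leaves. The dirigent list takes a whole family by annotation, whether or not a contig belongs to the strip. All 19 dirigent proteins, a family that guides the coupling of lignin precursors, passed as higher with a median of 9.63. Of these, Nbv5tr6205063 (dirigent protein 24-like) reached 1878 ± 142 RPKM in MdMYB68 leaves and 0.509 ± 0.262 RPKM in empty vector leaves (SD, n = 4 each). A further list of 17 contigs named after other Casparian strip genes, such as peroxidase 64 and the receptor kinase GSO1, passed as higher throughout with a median of 5.75, but 11 of them passed under TMM factors. In this list the median share of uniquely placed reads was 14.9%.

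Marker contigs of the endodermis were thus read in leaves, and the 10 Casparian strip membrane protein contigs summed to 1138 to 1373 RPM in MdMYB68 leaves and 0.434 to 1.22 in empty vector leaves. Of the 2 listed contigs for the epidermal gene PDF1, Nbv5tr6243655 rose 6.13-fold and Nbv5tr6239806 fell to 18.9 ± 1.75 RPKM in MdMYB68 leaves, against 86.1 ± 13.4 RPKM in empty vector leaves (SD, n = 4 each). The part of either list in the result on the RAX-type contigs was not tested.

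The list for shoot branching and organ boundaries, processes in which RAX factors act in Arabidopsis, held 2 contigs, 1 of them by annotation only. CUC3, a NAC factor that sets organ boundaries, had 10399, 10872, 11027 and 8413 reads on Nbv5tr6221623 in MdMYB68 leaves, against 23, 4, 14 and 11 in empty vector leaves. Nbv5tr6226272, with the symbol NAC038, entered the list through its annotation as CUP-SHAPED COTYLEDON 2, and had 254 to 711 reads in MdMYB68 leaves, against 4 to 10 in empty vector leaves. Both passed as higher without overlap, and replicate 3 was low for NAC038 where most RAX-type contigs were highest. Of 7 GRAS factor contigs, a family with the endodermis regulators SHR and SCR, 6 passed as higher, a share near the 83.4% of all listed contigs, and 2 passed under TMM factors and 3 with DESeq2's own size factors. The most read was Nbv5tr6244774 (SCL21) at 172 ± 13.4 RPKM in MdMYB68 leaves and 0.278 ± 0.0405 RPKM in empty vector leaves (SD, n = 4 each). Nbv5tr6398752 (SCL8), next by uniquely placed reads, rose 8.24-fold, with 39.6% of its MdMYB68 reads uniquely placed. Contigs entered this list by symbol or by annotation as scarecrow or short-root, whether or not they act in the endodermis. The contig that did not pass, Nbv5tr6256714, named after its value was seen, had a log2 fold change of 2.17 ± 0.48 (SE, adjusted p = 0.00132 in edgeR).

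Among other MYB factors, 7 of 8 suberin MYB contigs passed as higher, a share near the 83.4% of all listed contigs, with a median of 7.39 on the log2 scale. The other, Nbv5tr6214869, named after its value was seen, fell to 4.12 ± 0.702 RPKM in MdMYB68 leaves, against 20.1 ± 3.49 RPKM in empty vector leaves (SD, n = 4 each). It has no symbol and entered the list by its annotation as probable MYB39, whereas its best Arabidopsis hit is named odorant1-like. The most abundant by unique reads, Nbv5tr6223059 (annotated as MYB107), was at 53.7 ± 8.86 RPKM in MdMYB68 leaves and 0.268 ± 0.170 RPKM in empty vector leaves (SD, n = 4 each). Its MdMYB68 library range overlapped those of Nbv5tr6228633, Nbv5tr6205049 and Nbv5tr6222647. MYB92 on Nbv5tr6223622 was at 27.4 ± 3.51 and 0.0176 ± 0.0353 RPKM (SD, n = 4 each). The 27 remaining MYB-annotated contigs all passed as higher, with a smaller median of 4.71, but only 11 passed under TMM factors and 15 with DESeq2's own size factors. MYB4 on Nbv5tr6237471, a repressor of phenylpropanoid genes in Arabidopsis, was at 162 ± 14.4 RPKM in MdMYB68 leaves and 1.26 ± 0.374 RPKM in empty vector leaves (SD, n = 4 each). All 14 contigs for suberin monomer genes, which make the fatty acid derivatives of the polymer, passed as higher with a median of 6.34, for instance GPAT5 on Nbv5tr6232718 at 28.4 ± 2.31 and 0.0593 ± 0.0325 RPKM (SD, n = 4 each).

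The contigs most alike in level were sought among 1180 contigs that had a symbol and at least 50% uniquely placed reads, by the root mean square difference in log2(RPKM + 0.1) over the 8 libraries. Closest to the MYB36 contig Nbv5tr6218321 were Hsp70b (0.370), a bHLH55-annotated contig with the symbol AT1G12540 (0.407), a dirigent protein 25-like contig (0.476), a late embryogenesis abundant protein (0.513) and an oleosin 5-like contig (0.514). They averaged 60.7 to 111 RPKM in MdMYB68 leaves and had 0 to 6 reads over the empty vector group. The levels of the last 2 varied widely among MdMYB68 libraries, at 77.9 ± 32.2 and 93.1 ± 45.4 RPKM (SD, n = 4 each).

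Closest to the MYB84 contig Nbv5tr6218132 was a polygalacturonase-like contig with the symbol AT3G59850 (0.270), at 483 ± 39.5 RPKM in MdMYB68 leaves (SD, n = 4). It was followed by TBL34 (0.561), a cytochrome b561 and DOMON domain protein (0.590), a cupredoxin (0.598) and the dirigent protein 24-like contig Nbv5tr6222093 (0.633). They averaged 386 to 592 RPKM in MdMYB68 leaves and had 26 to 82 reads over the empty vector group. These differences are a description over 8 libraries that fall into 2 groups, and no test was made of them.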

How the data were processed

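Leaves of N. benthamiana infiltrated with MdMYB68 or empty vector, each with p19, gave 4 libraries per group. The authors trimmed the reads and mapped them with CLC Genomics Workbench, with primary and alternate transcriptome contigs as separate references. They deposited raw counts per contig, once for all reads that fall on it (total gene reads) and once for those that fit no other contig of its reference (uniquely placed reads). The RPKM values they deposited scale total reads by contig length and by what was mapped to primary or to alternate contigs, whichever set holds the contig. All 26440 RPKM values could be recomputed in this way within a relative tolerance of 0.0001, which gave the mapped reads per library, and RPKM over all mapped reads was computed from them. The table also holds the authors' fold change, log2 fold change, RPKM difference, p-value and FDR, which were not used. The number of columns of other samples is 0.

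The table holds 3305 selected contigs. Counts were tested with edgeR 4.0.16 in R 4.3.3 (quasi-likelihood, normalization factors of 1, all mapped reads as library size, no covariate, Benjamini-Hochberg over all contigs at 0.001). On counts simulated for the 3305 contigs and this comparison, edgeR recovered 10 of 50 contigs changed 2-fold and 32 of 50 changed 4-fold. It recovered 50 of 50 changed 16-fold and 49 of 50 changed 64-fold, with 0 false calls. Each contig was simulated from its level pooled over both groups, and most contigs were left unchanged. The simulation therefore does not cover contigs nearly absent from empty vector leaves, such as the RAX-type contigs. Ratios are pooled reads per mapped read with 95% Clopper-Pearson intervals. A ratio against 0 reads is a bound from 3 reads over the group. Intervals and bounds cover counting error only.

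The contigs, lists and alternatives were chosen with earlier results of these data known. Every RAX-type contig is named, and of each list at most 5 contigs with the most uniquely placed reads in MdMYB68 libraries, from which examples were taken. The 5 contigs most alike were named for the MYB36 and the MYB84 contig with the most uniquely placed reads. Alternatives were a fit on uniquely placed reads, TMM scaling, DESeq2 1.42.0 (own or fixed size factors), limma 3.58.1 on log2 RPKM with a pseudocount of 1 or 0.1, library sizes taken from primary or alternate contigs alone, at least 10 reads on average, a threshold of 0.05, a null of 2-fold, the replicate number as a block, and the omission of single libraries. Shares of unique reads were compared by an exact permutation test in scipy 1.17.1. Python 3.11.15, numpy 2.4.6, pandas 2.3.3 and matplotlib 3.10.9 were used. The sequences of the contigs were not analysed here.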

Additional observations from a re-analysis of the deposited data

Results flagged for a closer look

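Of 30 groups of 4 libraries examined for a value far from the others, 2 stood out. The rule is meant to single out about 1 in 20 groups by chance, a rate that does not hold for counts near 0. Both groups had reads in only 1 library, which the rule always flags. The MYB36 contig Nbv5tr6222270 was at 0.0512 RPKM over all mapped reads in empty vector replicate 2 and at 0 in the other empty vector libraries, and the value is 2 reads, both shared with other contigs. The MYB84 contig Nbv5tr6342855 was at 0.0283 RPKM in empty vector replicate 1 and at 0 in the others, and the value is 1 read.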

How the results depend on the processing

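The number of RAX-type contigs that passed was 11 under each alternative but uniquely placed reads, which gave 7 of 10. Over the other 17 alternatives and 11 contigs, all 187 log2 fold changes stayed positive and past the threshold, from 3.92 to 16.61. When single libraries were left out, 11 contigs passed each time, as did 3078 to 3158 of all listed contigs, against 3168 in the full set. Of the other lists, the remaining MYB contigs ranged from 26 to 27 and the GRAS contigs from 6 to 7. The differences in unique share stayed between -1.85 and -1.78 percentage points for Nbv5tr6218132, -63.4 and -46.3 for Nbv5tr6222646, -88.6 and -66.4 for Nbv5tr6222647, and -64.3 and -51.5 for Nbv5tr6205049. A minimum of 20 reads in every library left no RAX-type contig for that comparison.

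With factors computed on the listed contigs themselves, the median log2 fold change of all contigs was 0.40 (TMM) and 0.43 (DESeq2) instead of 3.34, and 1576 and 1977 of all contigs passed, 61.2% and 62.1% of them as higher instead of 87.03%. Under TMM factors 11 of 17 other Casparian strip contigs, 11 of 27 remaining MYB contigs and 2 of 7 GRAS contigs passed, and with DESeq2's own size factors 15 of the 27 and 3 of the 7. Changes are reported relative to all mapped reads. Libraries with the same replicate number did not deviate together (r between -0.0519 and 0.0210 over 4 pairs), and 0 of the 4 MdMYB68 libraries correlated best with their own number. With the replicate block 11 RAX-type contigs, 2615 of all contigs and 11 of 17 other Casparian strip contigs passed. The cause was not tested.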
